A study of Mus musculus with 2 samples.

Results

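The Z-disc anchoring genes are 10 genes of striated muscle: Actn3, Actn2, Myoz1, Myoz2, Myoz3, Tcap, Myot, Synpo2l, Xirp1 and Xirp2. They were taken by symbol, whatever their level, and all 10 are among the 43346 genes of the deposited tables. The study sequenced skeletal muscle of newborn mice of strain B6NCrl at postnatal day 0, in 2 libraries labelled as biological replicates 1 and 2. Each library was made with a SmartSeq protocol from 13 pg of total RNA, the amount of 1 cell-equivalent, taken from a portion of tissue of 1 pup. Both libraries carry the same donor entry but separate tissue records, and the sex was not collected. The mice carry no stated allele or treatment, there is 1 group and no control, and 2 libraries allow no p-value. The values below therefore rest on levels within each library, and the spread between the libraries can hold differences of pup, tissue portion and amplification, which cannot be told apart.

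The Z-disc is the plate at each end of a sarcomere, the contractile unit of striated muscle. Alpha-actinins cross-link the actin filaments of neighbouring sarcomeres there, titin and nebulin end there, and myozenins, telethonin and myotilin bind to this lattice. Several of these proteins come as paralogues with different use in fast and slow fibres: in adult muscle Actn3 and Myoz1 are known from fast fibres, Actn2 from all fibres and the heart, and Myoz2 from slow fibres and the heart.

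Replicate 1 held 32103374 expected counts, the estimated reads of all features, and replicate 2 held 38977618. Spike-in RNAs took 9.44% of TPM, the reads per transcript length scaled to a fixed sum, in replicate 1 and 4.54% in replicate 2. The labelled tissue was checked against 10 defining genes of skeletal muscle, all of which were detected in both libraries. Detection here meant 1 TPM or more together with 5 or more expected counts. None of 10 defining genes of the heart was detected in either library, 8 of them had no count in both, and their summed level was 0.18 TPM in replicate 1 and 0.17 TPM in replicate 2. Genes of other cells were present: 7 of 7 fibroblast genes, 5 of 7 endothelial genes, 4 of 6 macrophage genes and 3 of 7 smooth muscle and mural genes were detected in both libraries, leaving out Des of the last list, which muscle fibres also express. Over all 43346 genes, the share detected in both libraries was 10.05%. In libraries of this kind, fewer muscle fibres and less RNA per fibre cannot be told apart.

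Of the 10 Z-disc anchoring genes, 9 were detected in both libraries, against 10.05% of all 43346 genes. Myoz3 had no count in either. The 10 genes together held 0.565% of all TPM in replicate 1 and 0.606% in replicate 2 (0.586 ± 0.0296%, SD, n = 2). Actn2 and Myoz1 made up 65.8% of that sum in replicate 1 and 57.9% in replicate 2. Detection has to be read against level: among all genes, 43.1% of those averaging 1 to 100 TPM were detected in both libraries, 98.9% of those at 100 to 1000 TPM, and 100% of those above 1000 TPM. Of the 9 detected members, 3 averaged 1 to 100 TPM, 4 averaged 100 to 1000 TPM and 2 were above 1000 TPM.

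**Figure D1:**
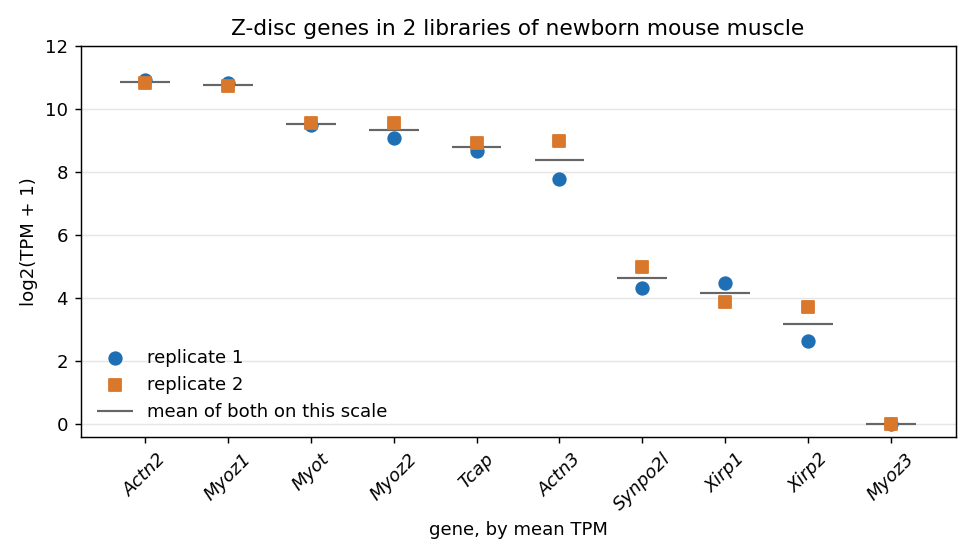
Level of each of the 10 Z-disc anchoring genes as log2(TPM + 1), ordered by mean TPM, with a circle for replicate 1, a square for replicate 2 and a line for the mean of both on this scale. Actn2 and Myoz1 stood highest with nearly coinciding points, Actn3 and Xirp2 had the points farthest apart, and Myoz3 was at 0 in both libraries.

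The alpha-actinins bind actin as antiparallel dimers. Actn3 (ENSMUSG00000006457) lies on the minus strand of chromosome 19 at 4861216 to 4877909, and Actn2 (ENSMUSG00000052374) on the minus strand of chromosome 13 at 12269426 to 12340760 (GRCm38, the assembly also called mm10, GENCODE M21). Their main transcripts have 21 exons each, and 19 wholly coding exons have the same length in both genes. Over these 2400 bases the genes were 76.2% identical, with 66.7% in the least and 88.5% in the most similar exon. Exon 4 is the most similar, and it is shown to let the distance between the paralogues be read. It is 87 bases long, at chr19:4871771-4871857 in Actn3 and chr13:12308900-12308986 in Actn2, both on the minus strand and given 5′ to 3′ from GENCODE M21 transcripts. Capitals mark the 10 bases that differ.
Actn3 exon 4: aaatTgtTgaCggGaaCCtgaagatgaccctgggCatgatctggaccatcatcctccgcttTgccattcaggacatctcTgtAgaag
Actn2 exon 4: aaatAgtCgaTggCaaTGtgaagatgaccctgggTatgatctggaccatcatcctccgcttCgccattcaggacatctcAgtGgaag
The longest run shared by any transcripts of the 2 genes was 51 bases. No stretch of 100 bases, the window implied by the difference between length and effective length in the tables, occurred in both genes. The same held between either of them and the nonmuscle alpha-actinins Actn1 and Actn4, with longest shared runs of 29 to 38 bases.

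Actn2 was the higher of the pair in both libraries. Actn3 had 221 TPM from 11442 expected counts in replicate 1 and 509 TPM from 28601 in replicate 2 (365 ± 203 TPM, SD, n = 2). Actn2 had 1916 TPM from 135092 expected counts in replicate 1 and 1823 TPM from 164026 in replicate 2 (1869 ± 65.5 TPM, SD, n = 2). The ranges of the 2 genes did not overlap, and the log2 ratio of Actn3 to Actn2, computed on TPM + 1, was -3.11 in replicate 1 and -1.84 in replicate 2. Its mean of -2.48 ± 0.90 (SD, n = 2) exceeded 2 SD in size. Actn2 was thus 8.67-fold higher than Actn3 in replicate 1 and 3.58-fold higher in replicate 2. Of the summed TPM of the 4 alpha-actinins, Actn3 held 9.59% in replicate 1 and 21.4% in replicate 2, and Actn2 held 83.2% and 76.8%.

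The nonmuscle alpha-actinins, which cross-link actin at stress fibres and adhesions of many cell types, stood below Actn2 in both libraries. Actn4 had 166 TPM in replicate 1 and 41.9 TPM in replicate 2, a 3.96-fold gap. Its modelled length also differed, at 2414 bases in replicate 1 and 3791 bases in replicate 2, and from 9381 and 4838 expected counts, per library total and not per length, the gap was 2.35-fold. Actn1 had no count in either library, and 3 counts per library were taken as the most that a count of 0 allows. On counting error alone, Actn4 was at least 4191-fold higher than Actn1 in replicate 1 and at least 1355-fold higher in replicate 2. Molecules lost before amplification would also give a count of 0, and these bounds do not cover that. Actn2 stood 11.5-fold above Actn4 in replicate 1 and 43.5-fold in replicate 2. Lists of cells other than fibres did not all move the same way. The 7 endothelial genes summed to 522 TPM in replicate 1 and 259 TPM in replicate 2, and to 340 and 259 TPM without Pecam1, which had 181.8 and 0.06 TPM. The 6 macrophage genes summed to 633 and 271 TPM and the 7 fibroblast genes to 7371 and 5001 TPM, while the 7 smooth muscle and mural genes other than Des summed to 402 TPM in replicate 1 and 659 TPM in replicate 2. Most of this last sum was Acta2 alone, at 319 TPM in replicate 1 and 487 TPM in replicate 2. Rgs5 and Pdgfrb were higher in replicate 1, and the other genes of that sum in replicate 2. Genes within the other lists were split as well. In TPM, Tie1, Kdr and Esam of the endothelial, Mrc1 of the macrophage and Lum and Dcn of the fibroblast list were higher in replicate 2. The macrophage genes Adgre1 and Csf1r were detected in neither library. The remaining endothelial, macrophage and fibroblast genes were higher in replicate 1. The part of these cells in the Actn4 difference was not tested.

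The level of Actn3 depended on how its reads were divided between transcripts. The tables hold 2 Actn3 transcripts: Actn3-201, which codes for the protein, and Actn3-202, annotated as a retained intron. Actn3-202 had 76.7 TPM in replicate 1 and 263 TPM in replicate 2, which was 34.7% and 51.7% of the gene's TPM, and its level was 3.43-fold higher in replicate 2. Actn3-201 had 144 TPM in replicate 1 and 246 TPM in replicate 2, 1.70-fold higher in replicate 2. Of the 982 bases of Actn3-202, 968 are also in Actn3-201. The 14 bases of its own are its first, and they are shown here with the 30 that follow, at chr19:4863515-4863558 on the minus strand. Capitals mark the bases found only in Actn3-202.
Actn3-202 start: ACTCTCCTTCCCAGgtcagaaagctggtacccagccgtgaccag
Of 883 windows of 100 bases along Actn3-202, 14 hold any of these bases, so a read from elsewhere in it matches both transcripts and its assignment is the model's estimate. With protein-coding transcripts only, a choice made after the data were seen, the log2 ratio of Actn3 to Actn2 was -3.72 in replicate 1 and -2.89 in replicate 2 (-3.30 ± 0.59, SD, n = 2). Actn2 was then 13.3-fold higher in replicate 1 and 7.42-fold higher in replicate 2, the same direction with a wider gap.

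Actn2 itself was divided between 2 coding transcripts with the same coding region of 2682 bases. Actn2-201 held 74.6% of the gene's TPM in replicate 1 and 63.7% in replicate 2, and Actn2-203 held 25.4% and 36.3%. The authors' credibility intervals, whose level the tables do not state, ran from 1345 to 1664 TPM in replicate 1 and from 1093 to 1261 TPM in replicate 2 for Actn2-201. For Actn2-203 they ran from 204 to 532 TPM in replicate 1 and from 527 to 698 TPM in replicate 2. A further Actn2 transcript of the retained-intron type stayed at 0.31 TPM in replicate 1 and 0.87 TPM in replicate 2.

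**Figure D2:**
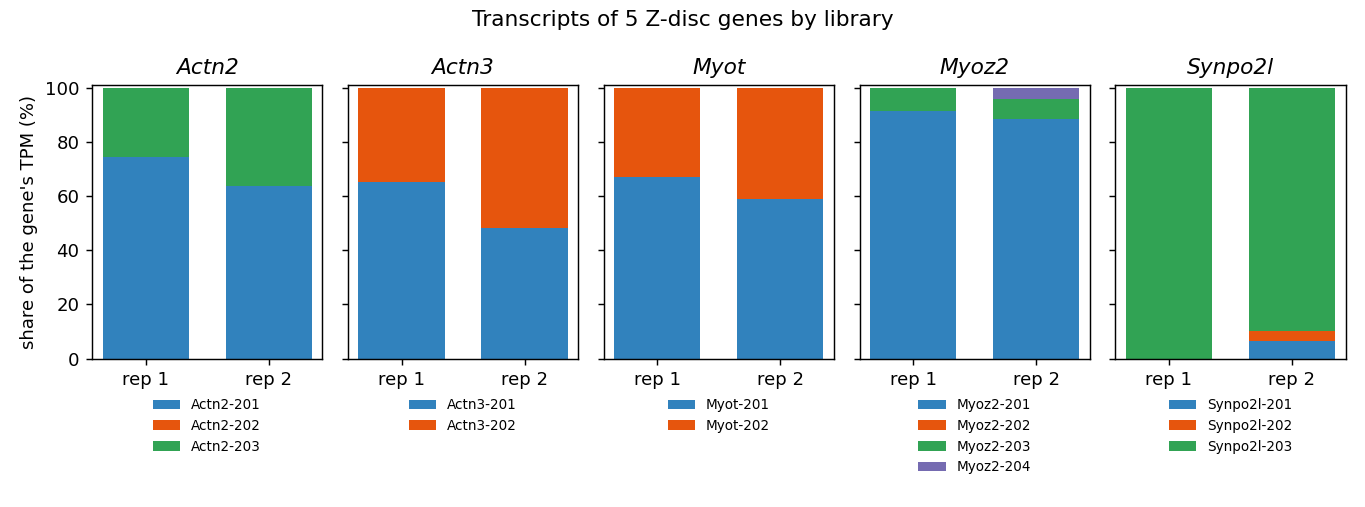
Share of each gene's TPM held by its transcripts, in percent, for the 5 members with more than 1 transcript above 1% in a library, with replicate 1 left of replicate 2 in each panel. Actn3-202 took 34.7% in replicate 1 and 51.7% in replicate 2, the largest shift among the 5 genes.

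The myozenins, also called calsarcins, bind alpha-actinin, filamin C and telethonin and tether the phosphatase calcineurin to the Z-disc. Myoz1 (ENSMUSG00000068697) lies on chromosome 14 at 20649107 to 20656540 and Myoz2 (ENSMUSG00000028116) on chromosome 3 at 123006206 to 123035015, both on the minus strand. Myoz1 had 1799 TPM from 52463 expected counts in replicate 1 and 1688 TPM from 63044 in replicate 2 (1744 ± 78.4 TPM, SD, n = 2). Myoz2 had 546 TPM from 13633 expected counts in replicate 1 and 758 TPM from 23973 in replicate 2 (652 ± 149.9 TPM, SD, n = 2). Myoz1, the paralogue known from fast fibres, was higher in both libraries and the ranges did not overlap. The log2 ratio of Myoz1 to Myoz2 was 1.72 in replicate 1 and 1.15 in replicate 2 (1.44 ± 0.40, SD, n = 2), which exceeded 2 SD and corresponds to 3.30-fold and 2.23-fold. With coding transcripts only it was 1.59 ± 0.37 (SD, n = 2). Longest runs shared among the 3 myozenins were 11 or 12 bases, and no window of 100 bases occurred in more than 1 of them.

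Among the alpha-actinins the gene known from fast fibres was thus the lower one, and among the myozenins it was the higher one, in both libraries. The 2 pairs are not like contrasts, as Actn2 is known from all fibres and Myoz2 from slow fibres and the heart. Their signs therefore cannot be set against each other as a measure of fibre type. For context, all 10 genes of a fast fibre list and all 9 genes of a slow fibre list, neither of which holds a Z-disc anchoring gene, were detected in both libraries. Among all genes it was 10.05%, but 98.9% at 100 to 1000 TPM and 100% above 1000 TPM. Fast fibre genes summed to 70975 TPM in replicate 1 and 98974 TPM in replicate 2, and slow fibre genes to 6224 and 6434 TPM.

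Myoz3 (ENSMUSG00000049173), the third myozenin and in adult muscle a gene of fast fibres, lies on the minus strand of chromosome 18 at 60573750 to 60591788. It had 0 expected counts in both libraries. A count of 0 allows up to 3 counts, which is 0.159 TPM in replicate 1 and 0.125 TPM in replicate 2, counting error only. On that limit, Myoz1 was at least 11283-fold higher than Myoz3 in replicate 1 and at least 13558-fold higher in replicate 2. Loss of molecules before amplification is not covered by these bounds. The model of Myoz3 in the deposited tables is 870 bases long, against 3436 bases in GENCODE M21. Reads from the part outside that model would not be counted, and how many there were was not analysed here.

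**Figure D3:**
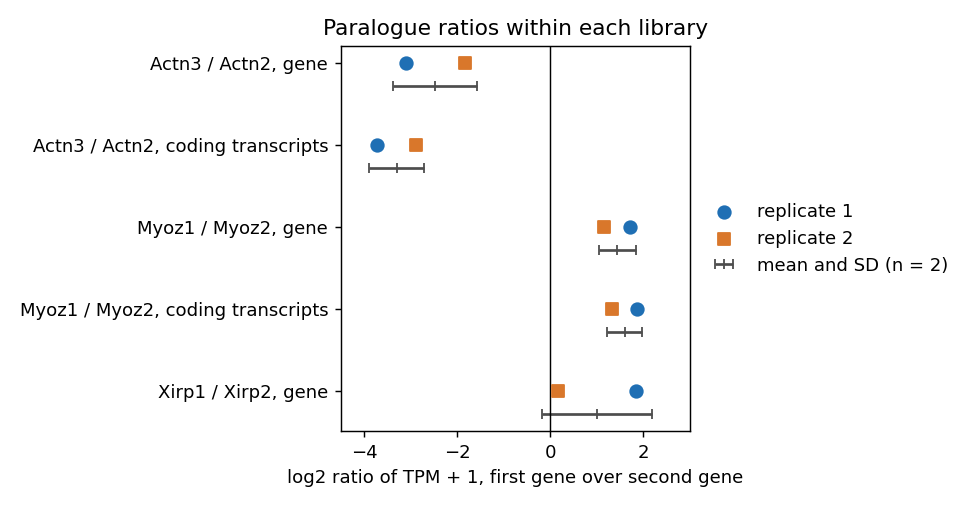
Log2 ratio of TPM + 1 of the first over the second gene of each pair, with a circle for replicate 1, a square for replicate 2 and a bar for the mean and SD (n = 2). Actn3 over Actn2 lay below 0 and Myoz1 over Myoz2 above 0 in both libraries, with all transcripts and with coding transcripts alone, while the bar of Xirp1 over Xirp2 crossed 0.

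Tcap encodes telethonin, which caps the start of titin at the Z-disc. Tcap (ENSMUSG00000007877) is a short gene on the plus strand of chromosome 11, at 98383811 to 98384953, with 1 transcript of 948 bases. Tcap had 403 TPM in replicate 1 and 479 TPM in replicate 2 (441 ± 54.0 TPM, SD, n = 2). Its partner Ttn, the titin gene, had 715 TPM in replicate 1 and 959 TPM in replicate 2. The log2 ratio of Tcap to Ttn was -0.91 ± 0.12 (SD, n = 2), so Tcap was below Ttn in both libraries by more than 2 SD. Ttn has many splice forms and its level per length rests on how they were modelled.

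Myot encodes myotilin, which binds alpha-actinin, filamin C and actin. Myot (ENSMUSG00000024471, chromosome 18, 44334074 to 44355724, plus strand) had 717 TPM in replicate 1 and 752 TPM in replicate 2 (734 ± 24.8 TPM, SD, n = 2). The libraries differed by 1.05-fold, as they did for Actn2. Both of its transcripts carry the same coding region of 1488 bases. Myot-201 held 66.9% of the gene's TPM in replicate 1 and 58.8% in replicate 2, and Myot-202 held 33.1% and 41.2%.

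Synpo2l encodes an actin-associated Z-disc protein that binds alpha-actinin. Synpo2l (ENSMUSG00000039376) lies on the minus strand of chromosome 14 at 20658946 to 20668354, next to Myoz1 on the same strand with 2405 bases between them. Synpo2l had 18.9 TPM from 1656 expected counts in replicate 1 and 30.5 TPM from 3486 in replicate 2 (24.7 ± 8.25 TPM, SD, n = 2). Its neighbour Myoz1 was 95.3-fold higher in replicate 1 and 55.3-fold higher in replicate 2. Replicate 1 held 1 Synpo2l transcript, Synpo2l-203, and replicate 2 held 3, with Synpo2l-203 at 90.0% of the gene's TPM, Synpo2l-201 at 6.66% and Synpo2l-202 at 3.33%.

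Xirp1 and Xirp2 encode Xin proteins, which bind and bundle actin through their Xin repeats and are known from cell junctions of the heart and from the tendon ends of muscle fibres. Xirp1 (ENSMUSG00000079243, chromosome 9, 120013755 to 120023598, minus strand) had 21.4 TPM from 2994 expected counts in replicate 1 and 13.6 TPM from 2442 in replicate 2 (17.5 ± 5.49 TPM, SD, n = 2). Xirp2 (ENSMUSG00000027022, chromosome 2, 67446002 to 67526614, plus strand) had 5.24 TPM from 1517 expected counts in replicate 1 and 12.1 TPM from 4474 in replicate 2 (8.66 ± 4.84 TPM, SD, n = 2). The levels were far apart in replicate 1 and close in replicate 2. The log2 ratio of Xirp1 to Xirp2 was 1.84 in replicate 1 and 0.16 in replicate 2, and its mean of 1.00 ± 1.19 (SD, n = 2) did not exceed 2 SD. The Xin genes therefore have no order beyond their spread. Xirp2 transcripts are long, 11955 and 11979 bases, and nearly all of the gene's TPM was assigned to Xirp2-201. The credibility interval of Xirp2-202 nevertheless reached from 0.0302 to 3.25 TPM in replicate 1 and from 0.0131 to 5.12 TPM in replicate 2, so the division between them is poorly fixed.

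The order by mean TPM was Actn2, Myoz1, Myot, Myoz2, Tcap, Actn3, Synpo2l, Xirp1, Xirp2 and Myoz3, but some neighbours could not be separated. Actn2 stood above Myoz1 by a log2 ratio of 0.10 ± 0.01 (SD, n = 2), small but of 1 direction in both libraries. Myoz1 stood above Myot by 1.25 ± 0.11 and Myoz2 above Tcap by 0.55 ± 0.16 on the same scale (SD, n = 2 each). These SDs cover the spread between libraries only, not errors of modelled length or amplification that both libraries share. The order of Myot and Myoz2 changed between libraries, with log2 ratios of 0.39 in replicate 1 and -0.01 in replicate 2. Tcap and Actn3 also changed places, at 0.86 in replicate 1 and -0.09 in replicate 2, as did Synpo2l and Xirp1, at -0.17 and 1.11. The widest step among detected members lay between Actn3 and Synpo2l, 11.7-fold in replicate 1 and 16.7-fold in replicate 2, and it parts 6 genes of at least 221 TPM in each library from 3 genes of at most 30.5 TPM. On counting error alone, Xirp2 was at least 32.9-fold above Myoz3 in replicate 1 and at least 97.0-fold in replicate 2.

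Upstream sequence of 250 bases was available from RefSeq (GRCm38.p6) for 4 of the 10 genes, in 5 entries, as Synpo2l has 2 starts. It is shown to set 2 genes of high level, Actn2 and Myoz2, beside 2 of low level, Synpo2l and Xirp2. Each entry was searched for the E-box CANNTG, bound by myogenic factors and found at the same place on both strands, for CATTCC on both strands, bound by TEAD factors, and for the MEF2 motif, which runs from CTA to TAG with 4 bases of A or T between and is likewise read on both strands at once. Capitals mark the matches, given 5′ to 3′ on the gene's strand. The 4 regions are chr13:12340733-12340982 (minus), chr3:123034988-123035237 (minus), chr14:20668355-20668604 (minus) and chr2:67445752-67446001 (plus). RefSeq and GENCODE M21 place the starts of Actn2 and Myoz2 differently. The last bases of these 2 regions lie inside the GENCODE genes, which reach to 12340760 and 123035015. In Myoz2 that stretch holds both E-boxes and part of the MEF2 match.
Actn2 upstream: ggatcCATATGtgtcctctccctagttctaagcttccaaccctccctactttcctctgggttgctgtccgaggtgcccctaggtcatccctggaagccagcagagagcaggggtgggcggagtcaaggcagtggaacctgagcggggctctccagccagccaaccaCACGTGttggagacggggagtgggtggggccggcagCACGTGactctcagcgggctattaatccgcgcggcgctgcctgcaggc
Myoz2 upstream: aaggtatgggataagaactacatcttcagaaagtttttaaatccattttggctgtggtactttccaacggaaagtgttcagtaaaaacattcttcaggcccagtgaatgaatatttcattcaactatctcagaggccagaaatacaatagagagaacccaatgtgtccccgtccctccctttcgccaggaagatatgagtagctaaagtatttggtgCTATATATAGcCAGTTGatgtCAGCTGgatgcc
Synpo2l upstream: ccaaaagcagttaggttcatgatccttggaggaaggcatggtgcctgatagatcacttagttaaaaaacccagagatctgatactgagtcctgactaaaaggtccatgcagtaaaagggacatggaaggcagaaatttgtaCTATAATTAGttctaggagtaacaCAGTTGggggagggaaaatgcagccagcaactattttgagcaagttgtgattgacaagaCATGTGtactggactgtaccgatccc
Xirp2 upstream: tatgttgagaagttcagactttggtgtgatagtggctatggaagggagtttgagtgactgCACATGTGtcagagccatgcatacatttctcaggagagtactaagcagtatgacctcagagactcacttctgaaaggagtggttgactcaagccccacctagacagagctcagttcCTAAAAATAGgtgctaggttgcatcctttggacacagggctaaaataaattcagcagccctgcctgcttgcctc
Actn2 held 3 E-boxes and no MEF2 match. Myoz2 and this entry of Synpo2l each held 2 E-boxes and 1 MEF2 match, and Xirp2 held 1 MEF2 match and 2 E-boxes that overlap. The other Synpo2l entry, at chr14:20664575-20664824 (minus) inside the GENCODE gene, held 3 E-boxes and no MEF2 match. Synpo2l-203, which held 100% of Synpo2l TPM in replicate 1 and 90.0% in replicate 2, has 2 exons, against 4 in Synpo2l-201. Which of the 2 starts it uses was not examined, so the printed entry may not be the one in use here. None of the 5 entries held CATTCC, and no MEF2 match overlapped an E-box. Over 32851 upstream regions of the same length, 66.2% held an E-box, 12.6% held CATTCC and 0.508% held the MEF2 motif. The matches describe the letters in these windows and say nothing of binding.

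Agreement between the libraries was measured as the log2 ratio of replicate 1 to replicate 2 in TPM, centred on the median of 4872 genes that reached 10 expected counts in each library, which moved values by 0.05. Of the 9 detected Z-disc anchoring genes, 7 lay within 2-fold, against 49.0% of the 4872 genes. The median size of the log2 ratio was 0.52 over the members and 1.02 over all these genes. Agreement also followed level. Above 1000 TPM both members lay within 2-fold, against 84.2% of all genes at that level. At 100 to 1000 TPM it was 3 of 4 members against 65.2%, and at 1 to 100 TPM it was 2 of 3 members against 42.8%.

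Actn2 and Myoz1 differed least between the libraries, with centred log2 ratios of 0.02 and 0.04. Myot followed at -0.12, Tcap at -0.30, Myoz2 at -0.52, Xirp1 at 0.60 and Synpo2l at -0.75. Actn3 at -1.25 and Xirp2 at -1.26 were the members beyond 2-fold, both lower in replicate 1. In deposited TPM these gaps are 2.30-fold for Actn3 and 2.31-fold for Xirp2. In all, 3 members were higher in replicate 1 and 6 in replicate 2. Centring on the median of 25 spike-ins instead shifts the median gene by -0.93. None of the 9 was then higher in replicate 1, and 3 lay within 2-fold, against 39.4% of the 4872 genes. For Actn3, the authors' credibility interval ran from 211 to 222 TPM in replicate 1 and from 492 to 508 TPM in replicate 2; these cover read assignment and counting within a library, not differences of amplification or pup. On counts scaled by edgeR's TMM factors, without length, Actn3 lay at -0.96, within 2-fold.

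Of the 10 fast fibre genes, 1 was higher in replicate 1 and 9 in replicate 2, with a median centred log2 ratio of -0.64. Of the 9 slow fibre genes, 4 were higher in replicate 1 and 5 in replicate 2, with a median of -0.11. Centring by construction splits the 4872 genes evenly, with 2436 higher in each library. The split among genes at the level of these lists was not computed. Other muscle lists also had more genes higher in replicate 2. Of 26 other Z-disc and costamere genes with a ratio, 6 were higher in replicate 1 and 20 in replicate 2, with a median of -0.44. For the 10 defining genes of skeletal muscle, some of them also on the fast list, it was 3 and 7, with a median of -0.44. On the same scale, relative to the median gene, Actn3 lay at -1.25, Myoz1 at 0.04 and Myoz2 at -0.52. The part of fibre make-up in these differences was not tested.

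**Figure D4:**
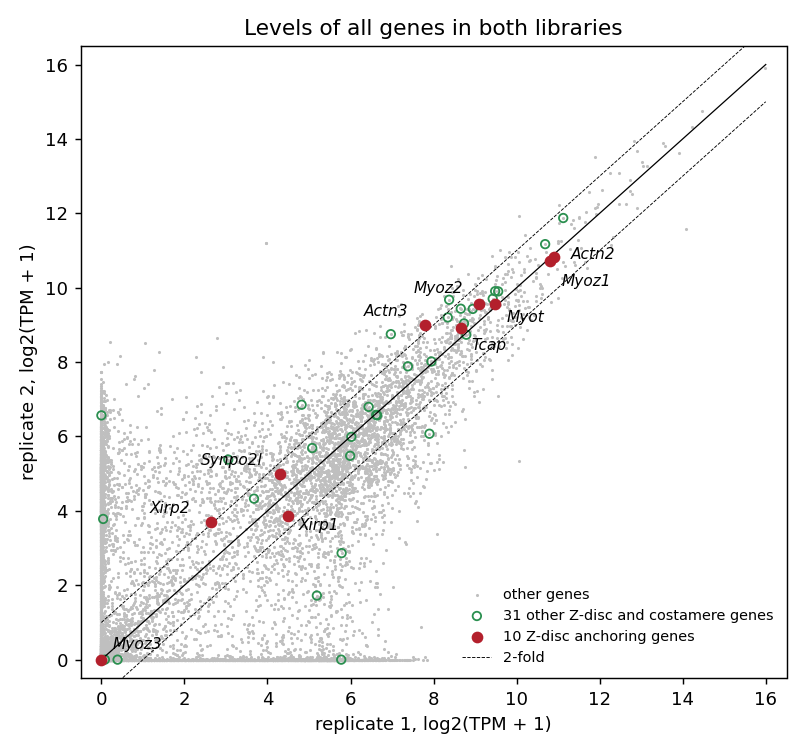
Level of every gene in replicate 1 (x axis) and replicate 2 (y axis) as log2(TPM + 1), with the 10 Z-disc anchoring genes filled, 31 other Z-disc and costamere genes as open circles and dashed lines at 2-fold on the deposited scale. Actn2, Myoz1, Myot and Tcap lie near the diagonal, and Actn3 and Xirp2 lie just outside the 2-fold line on the side of replicate 2.

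Beside the anchoring genes, 31 other genes of the Z-disc and of costameres, the links from Z-disc to membrane, were examined. Of these, 26 were detected in both libraries, against 10.05% of all 43346 genes, while 1 was detected in replicate 1 alone, 2 in replicate 2 alone and 2 in neither. The 4 highest were Fhl1, a LIM protein, at 2228 TPM in replicate 1 and 3751 TPM in replicate 2, Neb, the thin filament protein nebulin, at 1648 and 2305 TPM, Des, the intermediate filament desmin, at 752 and 955 TPM, and Ttn. Fhl1 averaged 2990 ± 1077 TPM and Neb 1976 ± 465 TPM (SD, n = 2), so both means stood above that of Actn2, but Neb was below Actn2 in replicate 1. Neb had a modelled length of 2476 bases in replicate 1 and 2438 bases in replicate 2, and its TPM and place in the order rest on that length. Its expected counts were 95558 and 168459, against 135092 and 164026 for Actn2. Bag3, a co-chaperone, had 3271 expected counts in replicate 1 and 0 in replicate 2. Trim55, a ubiquitin ligase of the sarcomere, had 0 in replicate 1 and 1771 in replicate 2, and Jph1, which ties the reticulum to the surface membrane, had 3 and 1878. Nebl, with 2 and 0 expected counts, and Sorbs2, with 19 and 0, were below the detection limit in both. No detected member of the anchoring group was missing from a library in this way, but this has to be read against level. Bag3, Trim55 and Jph1 averaged 26.9, 46.9 and 6.4 TPM. Among all genes averaging 1 to 100 TPM, 43.1% were detected in both libraries, and 98.9% at 100 to 1000 TPM. Only 3 of the 9 detected members averaged 1 to 100 TPM.

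**Figure D5:**
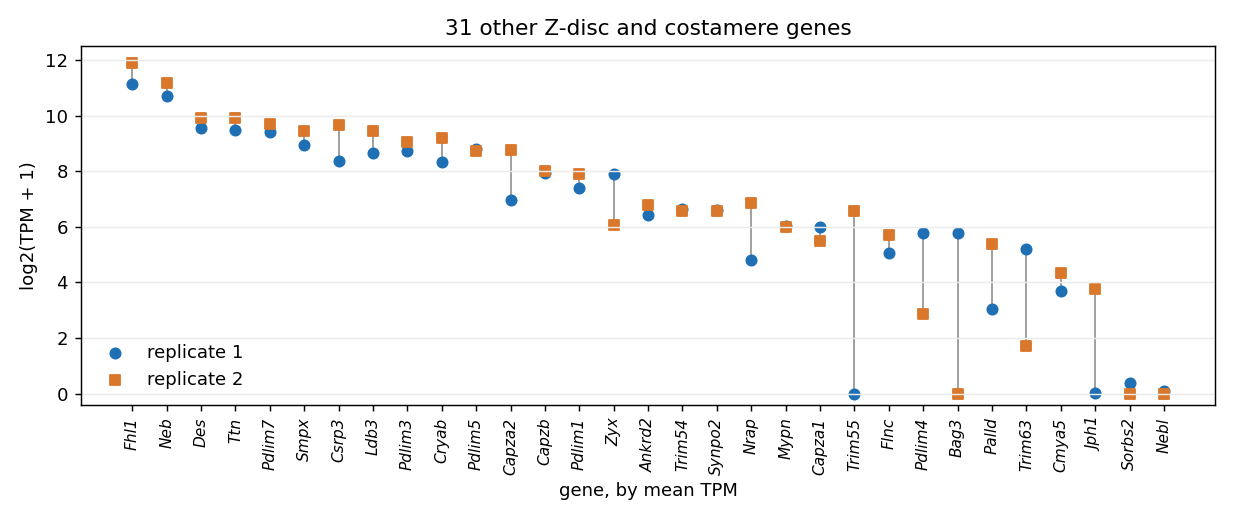
Level of 31 other Z-disc and costamere genes as log2(TPM + 1), ordered by mean TPM, with a circle for replicate 1 and a square for replicate 2 joined by a line. Long lines mark Trim55, Bag3 and Jph1, which were detected in 1 library only.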

How the data were processed

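Levels came from 2 libraries of newborn mouse skeletal muscle. The authors deposited expected counts, which are read estimates with decimals and carry no normalization. TPM was deposited by the authors as a level per effective length scaled to a fixed sum, spike-ins included. Posterior mean TPM and its credibility bounds (scores) and the percent of a gene's TPM held by a transcript were deposited too, per the file headers, whose columns are those of RSEM. The build was mm10 and the annotation GENCODE M4, per the notes deposited beside the tables. Not given in the sources used here are the aligner, its version and the use of strand. Extraction used mirVana, per the labels' protocols, RNA over 200 in size was used and spike-ins were added.

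Symbols and transcript sequences came from GENCODE M21 on GRCm38 and upstream sequences from RefSeq (GRCm38.p6), matched by identifier or symbol. Symbols were found for 42462 of 43346 genes. Numbered short features (0 expected counts in replicate 1 and 182 in replicate 2) were left out. Detection needed 1 TPM and 5 expected counts, log ratios used log2(TPM + 1), and a ratio exceeded the spread where both libraries had its sign and its mean was over 2 SD. There are no molecular identifiers, so limits for counts of 0 cover counting error only. By rule, genes named are the 10 members, the pair Actn4 and Actn1 and, of the Z-disc and calcineurin lists, the 4 highest detected in both libraries and those detected in 1. Nebl, Sorbs2, Ppp3cc, Nfatc3, Pecam1, Acta2, Rgs5, Pdgfrb, Tie1, Kdr, Esam, Mrc1, Lum, Dcn, Adgre1 and Csf1r were named after their values were seen. Cell type lists are otherwise given as counts and sums. The members and lists were chosen with earlier results of these data known. Tools were Python 3.11.15, pandas 2.3.3, numpy 2.4.6, matplotlib 3.10.9, R 4.3.3 and, for TMM factors on rounded expected counts, edgeR 4.0.16. The ratio code was tested on simulated data. Alternatives were another pseudocount, posterior means, counts without length, other detection limits and scalings, and each library alone.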

Additional observations from a re-analysis of the deposited data

How the results depend on the processing

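No paired analysis was possible because the 2 libraries form 1 group and no groups are compared. With each library alone, the log2 ratio of Actn3 to Actn2 ranged from -3.11 to -1.84, that of Myoz1 to Myoz2 from 1.15 to 1.72, the members' share of TPM from 0.565 to 0.606%, members detected from 9 to 9 and other Z-disc genes detected from 27 to 28. The share of TPM was 0.629% with spike-ins left out, and the share of expected counts was 0.861%, where long genes weigh more. Centred on spike-ins, 3 of 9 members lay within 2-fold, against 39.4% of all 4872 genes. Xirp1, Actn2 and Myoz1 then fell to -0.33, -0.91 and -0.89. TMM scaling gave 8 of 9 members, against 48.6% of all 4872 genes. Per count rather than per length, the ratio of Xirp1 to Xirp2 was -0.86 in replicate 2. The log2 ratios of Actn3 to Actn2 and of Myoz1 to Myoz2 kept their sign in both libraries under another pseudocount, posterior means, counts without length or coding transcripts only. Leaving single libraries aside, 19 alternatives were tried for the values that answer a comparison, of which 16 stayed within the spread or within 1.5 times the count and 3 moved. The libraries are deep, but amplification from 13 pg limits what their depth can show for genes of few molecules. The per-count value of Actn4 and the list sums without Pecam1 or Des were chosen after seeing the data.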

Other observations

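Myozenins are known to hold calcineurin, a calcium-dependent phosphatase, at the Z-disc, and 10 genes of calcineurin and its regulators were read for comparison. Of these, 4 were detected in both libraries, 2 in replicate 1 alone, 2 in replicate 2 alone and 2 in neither. All but Ppp3cc and Nfatc3 averaged 1 to 100 TPM, a level at which 43.1% of all genes were detected in both libraries. Over all 43346 genes the share was 10.05%. Ppp3ca, a catalytic subunit, had 51.3 TPM in replicate 1 and 13.5 TPM in replicate 2, and Ppp3cb, another, had 2.14 and 10.1 TPM. Nfatc1, a transcription factor that calcineurin activates, had 12.6 TPM in replicate 1 and 15.6 TPM in replicate 2, and the inhibitor Rcan1 had 2.78 and 1.42 TPM. Nfatc2 had 2195 expected counts in replicate 1 and 0 in replicate 2, and Nfatc4 had 812 and 31. Ppp3r1, the regulatory subunit, had 10 expected counts in replicate 1 and 7570 in replicate 2, and Rcan2 had 0 and 2839. Ppp3cc had no count in either library, and Nfatc3 had 50 in replicate 1 and 0 in replicate 2. Every gene of the list lay below Myoz2 in both libraries.

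By transcript type, protein-coding transcripts held 97.8% of the members' TPM in replicate 1 and 94.2% in replicate 2, and transcripts with a retained intron held 1.36% and 4.35%, nearly all of it Actn3-202. Myoz2-203, annotated for nonsense-mediated decay, held 8.65% of Myoz2 TPM in replicate 1 and 7.67% in replicate 2, and Myoz2-204, annotated as a processed transcript, held 0.12% and 4.01%.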
